A study of Magallana hongkongensis with 2 samples.

Results

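The RIG-I-like receptors of the Hong Kong oyster (Crassostrea hongkongensis) were examined as the 16 assembled transcripts ("unigenes"), of 21226 listed in all, whose best protein match names a RIG-I-like RNA helicase. The words searched for in the descriptions were the interferon-induced helicase C domain-containing protein 1 (IFIH1, also called MDA5), DDX58 (RIG-I), DHX58 (LGP2) and the older name of RIG-I. Of the 16 unigenes, 11 carried the IFIH1 description and 5 the DDX58 description, and none was described as DHX58. The names come from the best match in another species, which was the Pacific oyster Crassostrea gigas for 13 of them, and were not checked by sequence.

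The study asks which gill transcripts respond to heat in this estuarine bivalve. Wild adults were acclimated for 2 weeks and fed 2 microalgae. By its label, the control-labelled library came from oysters kept in seawater at 23 °C throughout, and by its own the heat-shock-labelled library came from a pool of 10 oysters held for 1 h in seawater warmed to 37 °C and then put back to 23 °C. The sources used here give neither the number of oysters behind the control library nor the time from the return to sampling. Each group has 1 library, so no test between conditions was possible. Every interval below is an exact 95% interval for counting error alone, and differences are between the libraries, not shown for the conditions.

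RIG-I-like receptors are cytosolic sensors of viral double-stranded RNA. In vertebrates, RIG-I and MDA5 bind such RNA through a helicase core and a C-terminal domain, pass the signal through caspase recruitment domains to the mitochondrial adaptor MAVS, and so switch on interferon genes and NF-kB. Oysters carry several RIG-I-like and STING-like genes, which belong to their innate antiviral defence. Their gill is a surface that filters seawater and is exposed to waterborne viruses and bacteria.

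The libraries held 3925349 uniquely mapped reads (labelled control, median of 46 per listed unigene) and 4173215 (labelled heat shock, median of 54). The heat shock genes went against the labels: Heat shock protein 90 (Unigene0015010) had 54239 reads under the control label and 3478 under the other, and Heat shock protein 70 B2 (Unigene0016013) had 19995 and 321. The libraries are therefore named by label throughout. Whether the labels were exchanged was not tested; if they were, every direction given below would turn. The median log2 ratio of the 17364 unigenes with at least 20 reads, heat shock label over control label, was 0.17 when counts were scaled to library totals, and medians below are to be read against it.

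All 16 sensor unigenes were listed in both libraries, with 2138 reads in the control-labelled library and 1388 in the heat-shock-labelled library. Their share of all reads was 0.0545% under the control label and 0.0333% under the heat shock label, so that their summed level was 1.64-fold higher in the control-labelled library (1.53 to 1.75). A call needed 20 or more reads over both libraries, a difference of 2-fold or more, and an interval that excluded 1. Of the 15 sensor unigenes with enough reads, 8 were called lower in the heat-shock-labelled library, 1 was called higher and 6 were neither. Among all 17364 unigenes tested, 3.25% met the rule for lower and 3.97% that for higher (564 and 690 unigenes, or 758 and 406 when scaled by TMM factors, which left the sensor counts at 8 and 1). The sensors were found by name but selected on the ratio of read counts between these libraries being known, so these counts are a description and nothing is read from the contrast. At any fold, the interval lay wholly below 1 for 13 of the 15 and above 1 for 1, where 8.91% and 23.0% of all tested unigenes did so. The median log2 ratio of the 15 was -1.01.

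**Figure D1:**
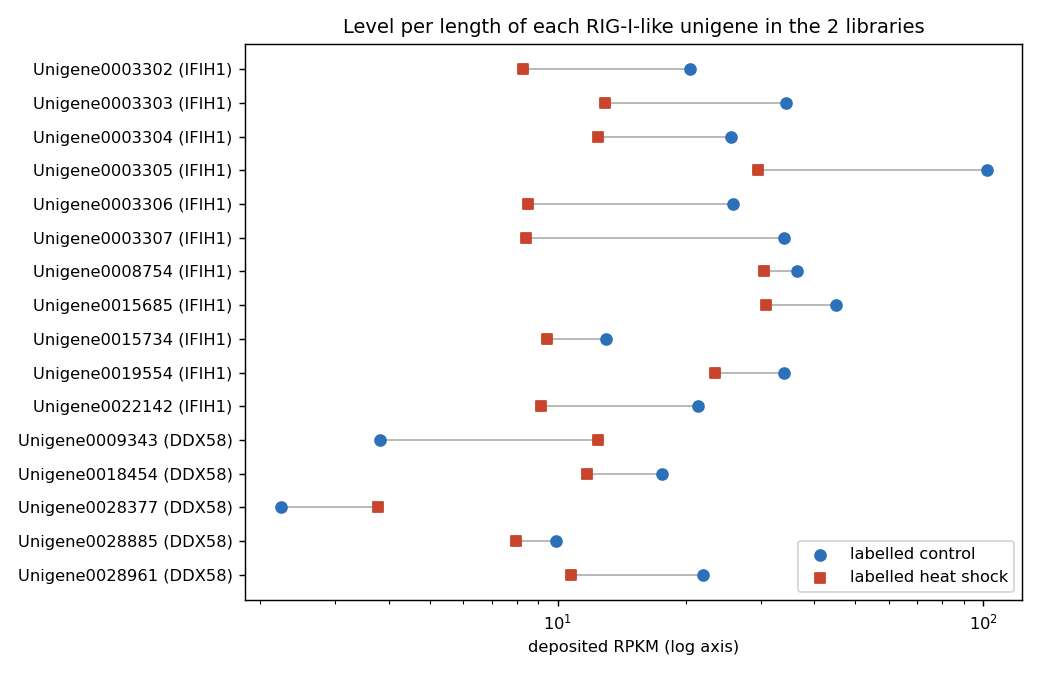
Deposited RPKM (reads per kilobase of unigene, scaled to the library total; log axis) of each of the 16 sensor unigenes in the control-labelled library (circles) and the heat-shock-labelled library (squares), 1 library each. The circle lies to the right for 14 unigenes and to the left for Unigene0009343 and Unigene0028377.

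The largest differences among the IFIH1 unigenes lay in a run of 6 with consecutive numbers, Unigene0003302 to Unigene0003307. All 6 were called lower in the heat-shock-labelled library. Together they had 763 reads under the control label and 298 under the heat shock label, 2.72-fold more in the former (2.38 to 3.12). Within the run the levels per length were alike in the heat-shock-labelled library, between 8.30 and 12.9 RPKM, except for one short unigene.

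That short unigene, Unigene0003305, was 227 bases long and had 91 reads in the control-labelled library and 28 in the heat-shock-labelled library. Its RPKM of 102 and 29.6 were the highest of the run in both libraries, and it was 3.46-fold higher under the control label (2.24 to 5.48). At this length each read weighs more in the RPKM than in the longer unigenes of the run. Why its level per length was higher was not tested. The deposited annotation gives it nucleic acid binding, nucleoside-triphosphatase activity and RNA-based gene silencing as gene ontology terms.

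Unigene0003307 (913 bases) had the largest fold difference, in either direction, of all 16. It had 122 reads under the control label and 32 under the heat shock label, or 34.04 and 8.40 RPKM, a 4.05-fold difference (2.73 to 6.18). It carries the terms RNA binding and negative regulation of response to stimulus. Unigene0003306 (1097 bases) had 111 and 39 reads, 3.03-fold more under the control label (2.08 to 4.48).

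Unigene0003303 (1451 bases) had 196 reads in the control-labelled library and 78 in the other, a fold of 2.67 (2.04 to 3.52). Unigene0003302, of 722 bases, had 58 and 25 reads, a fold of 2.47 (1.52 to 4.12). Unigene0003304, the longest of the run at 1848 bases, had 185 and 96 reads and the smallest fold, 2.05 (1.59 to 2.65).

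The numbering bears on how many genes this run stands for. Among listed unigenes numbered below 13476, where lengths follow no order, 40.5% of 4609 neighbouring pairs shared a description. From that number on, 0.201% of 10437 pairs did. A block sorted by length starts there, but the order does not hold to the last number. Unigene0028961 has 535 bases and Unigene0030772 has 2521. Whether the 6 are separate genes or pieces, alleles or splice forms of fewer cannot be told apart from these files. Counted as 1, they leave 3 sensor units called lower and 1 higher of 10 with enough reads. The remaining 10 sensor unigenes together were 1.34-fold higher under the control label (1.24 to 1.45).

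**Figure D2:**
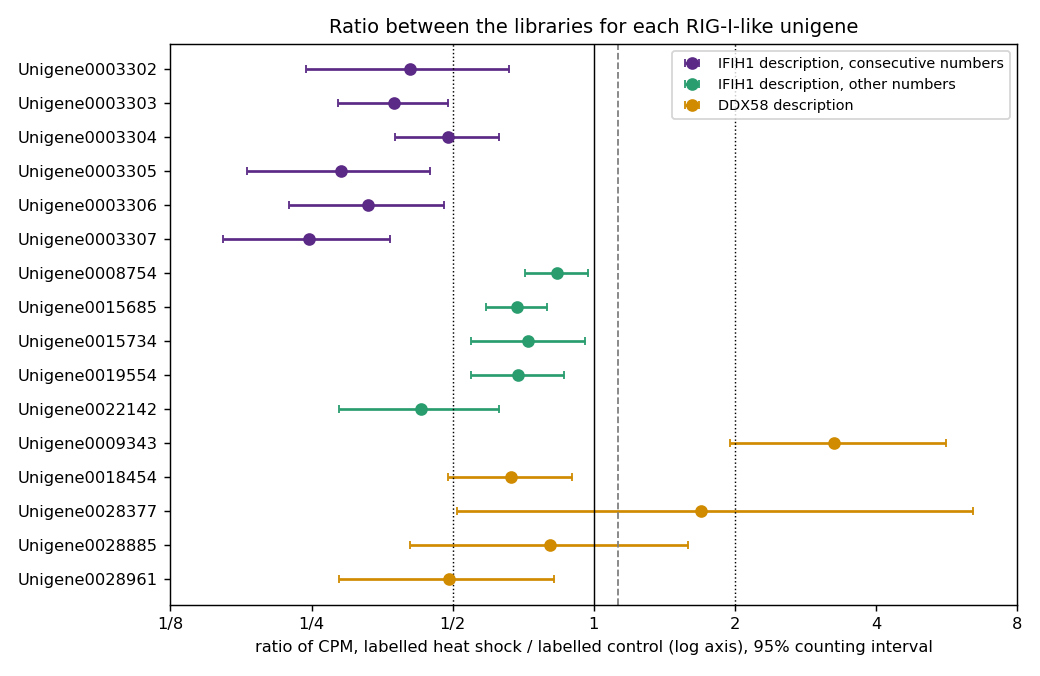
Ratio of reads scaled to library totals (CPM), labelled heat shock over labelled control (log axis), for each sensor unigene with its exact 95% counting interval. The solid line marks equality, the dotted lines 2-fold and the dashed line the median of all tested unigenes; the 6 consecutive IFIH1 unigenes lie at or left of 0.488, and Unigene0009343 lies at 3.25.

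The other 5 IFIH1 unigenes lay in the same direction, and 4 of them had smaller differences than any of the run. Together they had 1174 reads under the control label and 893 under the heat shock label, 1.40-fold more in the former (1.28 to 1.53). They include the sensors with the most reads, and the same 4 stayed under the 2-fold rule.

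Unigene0015685 (2416 bases), best matched to IFIH1 of a bird, was the most read sensor. It had 427 reads in the control-labelled library and 311 in the heat-shock-labelled library, or 45.02 and 30.8 RPKM, a fold of 1.46 (1.26 to 1.69). Unigene0008754 (2470 bases) followed with 354 and 314 reads, or 36.5 and 30.5 RPKM. Its fold of 1.20 (1.03 to 1.40) was the smallest of the 11, so that the least and the most changed IFIH1 unigenes had nearly equal levels under the control label, and levels of 30.5 and 8.40 RPKM under the heat shock label.

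Unigene0019554 (1372 bases) had 183 and 134 reads, a fold of 1.45 (1.16 to 1.83), and Unigene0015734 (2394 bases) had 122 and 94 reads, a fold of 1.38 (1.05 to 1.83). The latter is annotated with positive regulation of cytokine production. Unigene0022142 (1051 bases) stood with the consecutive run and was called lower, at 88 and 40 reads and a fold of 2.34 (1.59 to 3.49). It carries no pathway and no gene ontology entry.

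Ranked by level per length in the heat-shock-labelled library, Unigene0015685 (30.8 RPKM), Unigene0008754 (30.5) and the short Unigene0003305 (29.6) led the IFIH1 unigenes. Unigene0019554 followed at 23.4, and the other 7 lay between 8.30 and 12.9. In the control-labelled library the order differed: Unigene0003305 led at 102 RPKM, Unigene0015685 had 45.02, and the other 9 lay between 12.98 and 36.5.

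The DDX58 unigenes held few reads and did not share a direction. Their sum was 201 reads in the control-labelled library and 197 in the heat-shock-labelled library, a fold of 1.08 whose interval of 0.887 to 1.33 includes 1. Per length they were below the IFIH1 unigenes as a group, with 11.2 RPKM summed over their lengths against 30.9 under the control label and 10.4 against 17.9 under the heat shock label.

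Unigene0009343 (1331 bases), best matched to a DDX58-like protein of a sea urchin, was the only sensor called higher in the heat-shock-labelled library. It had 20 reads under the control label and 69 under the heat shock label, or 3.83 and 12.4 RPKM, 3.25-fold higher in the latter (1.95 to 5.64). Reads covered 43.05% of its length in the former and 60.03% in the latter. It has no pathway or gene ontology entry in the deposited annotation.

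Unigene0018454 (1576 bases), matched to DDX58 of a rodent, had 109 and 77 reads, 1.505-fold more under the control label (1.11 to 2.04). It is the only DDX58 unigene that the deposited annotation places in the RIG-I-like receptor pathway. Unigene0028961 (535 bases) had 46 and 24 reads and was called lower, at a fold of 2.04 (1.22 to 3.49), just inside the 2-fold limit. The next sensor outside that limit was Unigene0018454.

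Unigene0028885 (540 bases) had 21 reads under the control label and 18 under the heat shock label, a fold of 1.24 (0.629 to 2.47). Unigene0028377 (571 bases) had 5 and 9 reads, too few for a call. For both, the interval held equality as well as a 2-fold difference.

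The deposited annotation and coverage add what the descriptions do not hold. The RIG-I-like receptor pathway is entered for 10 of the 16 sensors, with 1900 and 1203 reads, 1.68-fold more under the control label (1.56 to 1.81), and 5 of the 10 were called lower and none higher. The 6 without that entry had 238 and 185 reads, a fold of 1.37 (1.12 to 1.67), with 3 called lower and 1 higher. The cytosolic DNA-sensing pathway is entered for 6 of the sensors, of which 4 were called lower; all 4 belong to the consecutive run. The 3.25% of all tested unigenes called lower is the background of these counts.

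Reads covered from 33.1% to 97.9% of the length of a sensor in the control-labelled library and from 39.2% to 93.4% in the heat-shock-labelled library. Within the consecutive run, 5 of the 6 were covered over 96.2% to 97.9% of their length under the control label, whereas Unigene0003304 was covered over 66.07%, although it had 185 reads. Unigene0019554, with 183 reads over a shorter length, was covered over 96.3%. The counts hold uniquely mapped reads only, so any stretch that Unigene0003304 shares with another unigene would carry none. Whether this lies behind the gap was not tested.

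**Figure D3:**
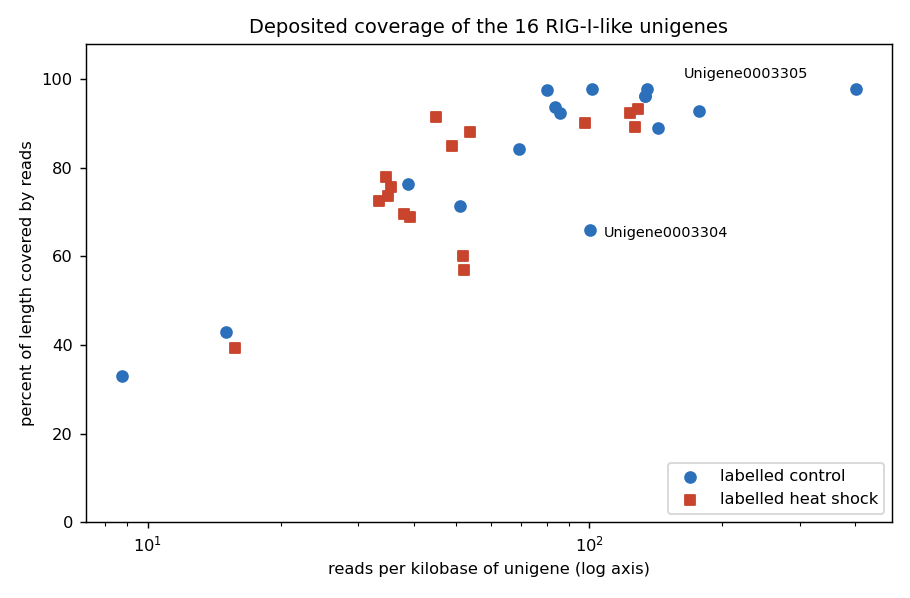
Percent of unigene length covered by reads against reads per kilobase (log axis) for the 16 sensor unigenes in the control-labelled library (circles) and the heat-shock-labelled library (squares). Coverage is higher where reads are denser, and Unigene0003304 lies low for its density, at 66.07% under the control label and 56.9% under the heat shock label.

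One close relative falls outside the words of the rule. Unigene0014595 (3180 bases) is described as a Dicer Related Helicase family member like drh-1, which in the nematode Caenorhabditis elegans is a RIG-I-like helicase of antiviral RNA interference. It had 557 reads in the control-labelled library and 365 in the heat-shock-labelled library, more than any of the 16. At 44.6 and 27.5 RPKM it was 1.62-fold higher under the control label (1.42 to 1.86) and under the 2-fold rule. The deposited annotation places it in the RIG-I-like receptor pathway too.

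The signalling partners of the sensors were collected by words in the descriptions, which gave 95 unigenes, 76 with enough reads. Of these, 2 were called lower in the heat-shock-labelled library, 1 was called higher and 73 were neither, where 3.25% and 3.97% of all tested unigenes were called, so these counts do not stand above the background. With TMM factors 4 were called lower and 0 higher. Their median log2 ratio was -0.08, beside 0.17 for all tested unigenes and -1.01 for the sensors. Their summed reads were 16619 and 16980, 1.04-fold higher under the control label (1.02 to 1.06). With 1 library per group, the difference between the sensors and this list was not tested.

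All 5 adaptor unigenes matched STING, the membrane adaptor that relays cytosolic nucleic acid signals. None was called, and they did not share a direction. Unigene0030772 had 590 and 516 reads, 1.22-fold more under the control label (1.08 to 1.37). Unigene0008568 had 384 and 541 reads, 1.33-fold more under the heat shock label (1.16 to 1.51).

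The 13 kinase unigenes, TBK1 and the I-kappa-B kinases that activate interferon regulatory factors and NF-kB, had no call. For so few unigenes this is near the 3.25% called lower and 3.97% called higher among all tested unigenes. Their summed reads were 1873 and 2351, 1.18-fold higher in the heat-shock-labelled library (1.11 to 1.26). With TMM factors the sum was 1.05-fold higher there, with an interval of 0.991 to 1.12 that includes 1. Singly, scaled to library totals, 7 of the 13 had a ratio below 1 and 6 above. Their median log2 ratio was -0.01. The most read, I-kappa-B kinase epsilon (Unigene0008270), had 486 and 731 reads, 1.41-fold more under the heat shock label (1.26 to 1.59). A second epsilon unigene, Unigene0014934, had 213 and 277 reads.

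The TRAF and death-domain partners carry the signal from MAVS in vertebrates. Their 18 unigenes, 14 with enough reads, had 1797 and 1417 reads in sum, 1.35-fold more under the control label (1.26 to 1.45). Of the 14, 1 was called lower, where 3.25% of all tested unigenes were. The called one was TRAF3 (Unigene0015055), a ubiquitin ligase of the interferon branch, with 174 and 85 reads, a fold of 2.18 (1.67 to 2.86). More TRAF3 reads lay in Unigene0006943, with 280 and 180 reads and a fold of 1.65 (1.37 to 2.01), while Unigene0027307 had 54 and 72 reads and an interval that includes 1.

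The most read unigene of this group was TRAF2 (Unigene0015570), an adaptor of NF-kB signalling, with 326 and 203 reads and a fold of 1.71 (1.43 to 2.04). The CASP8 and FADD-like apoptosis regulator (Unigene0015400), a decoy of caspase-8, had 257 and 220 reads.

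Transcription factors and their inhibitors formed the most abundant group, with 24 unigenes and 9718 and 9940 reads. Of 20 with enough reads, 1 was called lower and 1 higher, where 3.25% and 3.97% of all tested unigenes were. The NF-kB subunits had the most reads: p105-like Unigene0013952 had 2245 and 2772, 1.16-fold more under the heat shock label (1.10 to 1.23; 1.04 with TMM factors), and p100 Unigene0014023 had 1216 and 1283, with an interval that includes 1. One of the 6 unigenes of Interferon regulatory factor 2, a DNA-binding regulator of interferon genes, was called higher: Unigene0022787 had 78 and 171 reads, 2.06-fold more under the heat shock label (1.57 to 2.73). With TMM factors it was 1.84-fold higher and under the 2-fold rule. The other unigenes of this factor with enough reads were not called and had log2 ratios from -0.27 to -0.01.

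The 3 unigenes described as inhibitor protein kappa B, which holds NF-kB in the cytoplasm, were all more abundant under the control label. Unigene0005662 (322 bases) was called lower in the heat-shock-labelled library, with 484 and 247 reads and a fold of 2.08 (1.78 to 2.44). Unigene0005663 had 1535 and 898 reads, a fold of 1.82 (1.67 to 1.98), and Unigene0005661 had 436 and 319, a fold of 1.45 (1.25 to 1.68). The 3 carry consecutive numbers and may be pieces of 1 gene; the last pair was chosen after the values were seen. Signal transducer and activator of transcription 5A, a cytokine-activated factor in vertebrates, went the other way in its 3 unigenes, also chosen after the values were seen. Unigene0007870 had 209 and 417 reads, 1.88-fold more under the heat shock label (1.59 to 2.23), Unigene0007871 had 95 and 179, 1.77-fold more (1.37 to 2.30), and Unigene0014991 had 45 and 81, 1.69-fold more (1.16 to 2.49). None of the 3 was called.

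Neither regulators nor effectors had a call, among 9 and 15 unigenes with enough reads. For groups this small that too is near the 3.25% and 3.97% of all tested unigenes called lower and higher. CYLD, a deubiquitinase that restrains the pathway, had 261 and 206 reads in Unigene0019448, a fold of 1.35 (1.12 to 1.62), and 210 and 163 in Unigene0003991. The antiviral effector viperin, described as Radical S-adenosyl methionine domain-containing protein 2 (Unigene0007175), had 183 and 162 reads, a fold of 1.20 (0.967 to 1.49). The double-stranded RNA-activated protein kinase (Unigene0016021), which blocks translation in infected vertebrate cells, had 153 and 117 reads, a fold of 1.39 (1.09 to 1.78).

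A second list, chosen after the values were seen, came from the RIG-I-like receptor entry of the deposited annotation without the sensors. It had 57 unigenes, 33 of them shared with the list by words, which is 57.9% of the former and 34.7% of the latter. Of 55 with enough reads, 3 were called lower and none higher. Among all tested unigenes 3.25% and 3.97% were, so these counts are near the background. The median log2 ratio was -0.09, beside 0.17 for all tested unigenes. The third call beside TRAF3 and the kappa B inhibitor was Mitogen-activated protein kinase 14 (Unigene0033144), a stress kinase, with 356 and 169 reads and a fold of 2.24 (1.86 to 2.71).

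**Figure D4:**
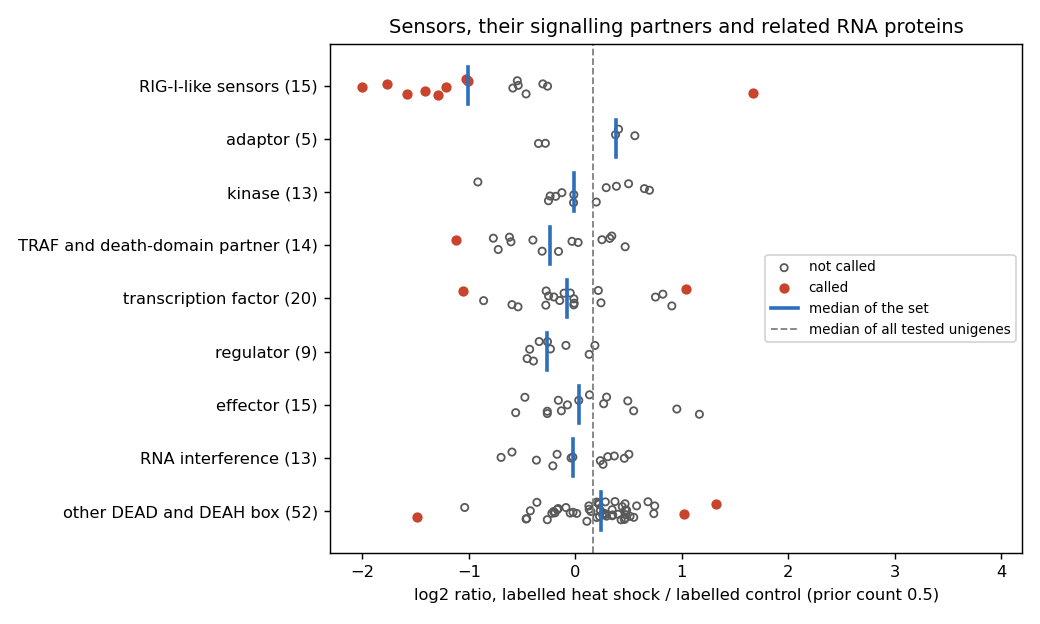
Log2 ratio, labelled heat shock over labelled control, of each unigene with at least 20 reads among the sensors, the roles of the signalling list and the related RNA proteins, with the number of unigenes in brackets. Filled points were called, the thick bar is the median of each set and the dashed line the 0.17 of all tested unigenes; the sensor median lies at -1.01 and that of the other helicases at 0.24.

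Proteins that share the helicase core or the RNA substrate were set beside the sensors. None of the 13 unigenes of the RNA interference list, all with enough reads, was called. For so short a list this is near the 3.25% called lower and 3.97% called higher among all tested unigenes. The list had a median log2 ratio of -0.02. It includes the Dicer Related Helicase above and a pair of ERI1 exoribonuclease unigenes that the words caught although they are neither Dicer nor Argonaute. Argonaute-2, the slicer of RNA interference, had 767 and 724 reads in Unigene0013570 and 394 and 493 in Unigene0006730.

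The other DEAD and DEAH box RNA helicases, many of which act in splicing, ribosome assembly or translation, had 56 unigenes. Of 52 with enough reads, 1 was called lower and 2 higher (1 and 1 with TMM factors), counts near the 3.25% and 3.97% of all tested unigenes. Their median log2 ratio was 0.24. Their summed reads were 5198 and 6775, 1.23-fold higher in the heat-shock-labelled library (1.18 to 1.27), opposite to the sensors, and 1.09-fold higher there with TMM factors. The most read, DDX5 (Unigene0006110), had 567 and 1011 reads, 1.68-fold more under the heat shock label (1.51 to 1.86). DHX8 (Unigene0013977) had 357 and 436 reads and DDX23-like Unigene0014626 had 307 and 415.

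With only 2 libraries, likeness of pattern reduces to the nearness of 1 log2 ratio, and many unigenes are near. Within 0.05 of the most read sensor, Unigene0015685, lay 137 of 9881 described unigenes with at least 100 reads; the nearest were RNA-binding protein 4 (Unigene0020383), N-terminal EF-hand calcium-binding protein 1 (Unigene0007271) and a MAP kinase kinase kinase 7-interacting protein (Unigene0027399). Within 0.05 of the most read called sensor, Unigene0003304, lay 37; the nearest were Glucosidase 2 subunit beta (Unigene0009747), E3 ubiquitin-protein ligase MIB2 (Unigene0024780) and Heat shock protein STI (Unigene0001823).

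Fewer cells of a type and less RNA per cell cannot be told apart in whole gill, nor by summed markers. Marker sums are given as a description. Words for hemocyte markers, the blood cells that enter the gill, caught 22 unigenes, of which 2 had no read under the control label and 3 none under the heat shock label; no unigene carried the name cavortin. Their sum was 6192 CPM under the control label and 8065 under the heat shock label, mostly from Extracellular superoxide dismutase, without which it was 1320 and 1584. The 93 cilia unigenes summed to 11097 and 13401 CPM and the 15 muscle unigenes to 1144 and 1370, while the sensors summed to 545 and 333. The hemocyte, cilia and muscle sums were higher under the heat shock label, by 1.16-, 1.08- and 1.07-fold with TMM factors. Without the most read unigene of each list, the same sums were 1.07-, 1.08- and 1.03-fold higher there with TMM factors. Of the 16 hemocyte unigenes with enough reads, 2 were called lower, both described as galectin-4, and none higher. Of 84 such cilia unigenes, 1 was called lower and 1 higher, the latter not with TMM factors. None of 14 such muscle unigenes was called. Across the 17364 unigenes tested, the same rule gave 3.25% lower and 3.97% higher. Against these shares, nothing is read from so few marker calls. The 6 unigenes caught by words for algal food summed to 83.05 and 55.6 CPM. Those caught as Chlorophyllide a oxygenase, 2 of them called lower, were best matched to an oyster and mark no alga. The part of cell makeup in the sensor differences was not tested.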

How the data were processed

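Polyadenylated RNA of oyster gill was sequenced in 2 libraries. CASAVA 1.4 and cutadapt 1.8.1 are named in, and credited to, the submitters' processing notes; the sources used here give no aligner and no assembly method. Each row of a deposited file is a unigene, per the file headers, with its length, its count of reads that mapped uniquely, its percent coverage and its RPKM. The deposited counts are whole numbers that sum to the header total, and the authors' RPKM equals count over length and total to a relative difference of at most 5.1e-15. Unigenes in 1 file only were set to 0 in the other. The deposited coverage, in percent, was used as a description.

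Counts were scaled to library totals, and ratios were given exact conditional binomial (Clopper-Pearson) 95% intervals (scipy 1.17.1). Intervals cover counting error only and treat reads as independent. PCR copies are not independent molecules, so the intervals may be too narrow even for that error. With 1 library per group no p-value was computed and edgeR's and DESeq2's tests were not run. Log2 ratios have a prior count of 0.5. The call rule was checked on simulated counts. Alternatives were edgeR 4.0.16 TMM factors, DESeq2 1.42.0 size factors, and other minimums, ratios and intervals. Partners are named by role as the 2 most read and every called unigene with at least 50 reads, related helicases as the 3 most read. The members and lists were chosen with earlier results of these data known. No sequences were used.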

Additional observations from a re-analysis of the deposited data

How the results depend on the processing

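The sensor counts of 8 lower and 1 higher were also found with TMM factors, size factors, no minimum and a 99% interval. At a ratio of 1.5, 9 were lower and 1 higher. With a minimum of 100 reads, 6 were lower and 0 higher; at a ratio of 4, 1 was lower and 0 higher; with the consecutive run counted as 1, added after seeing the data, 3 were lower. Both scalings multiply every ratio by 1 constant and could turn only ratios close to 1. The summed ratio, heat shock label over control label, was 0.611 and moved to 0.545 with TMM, 0.544 with size factors and 0.746 without the consecutive run. Both scalings brought the median of all unigenes to 0.00. The pathway median then moved from -0.08 to -0.25 with either. Pathway calls numbered 12 at a ratio of 1.5 and 0 at 4; those of RNA interference numbered 1 at 1.5; those of the other helicases numbered 1 at 100 reads, 5 at 1.5 and 0 at 4. Over all unigenes, lower calls numbered 312 at 100 reads, 992 at 1.5 and 141 at 4, and higher calls 196, 1851 and 55, with 406 under TMM and 405 under size factors. No paired analysis was possible because each group has 1 library, so no replicate was left out.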
